A study of Mus musculus with 12 samples.

Results

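The subject is DNA replication and S phase in muscle carrying vascular anomalies, followed through 48 genes that encode the replication machinery and its control. The genes were chosen by name and function (licensing, polymerases, nucleotide supply and repair in S phase), by a rule that uses no measured level. Earlier results of these data were known when they were chosen. All 48 were found by symbol among the 30389 genes of the expression table, and all are protein coding. Messenger RNA had been sequenced in 12 libraries from 6 C57BL/6 mice, 2 pieces of muscle tissue per animal. In 3 mice, termed SBxVEC-Cre+, the genotype was VEC-Cre with SB Transposase and onc3, and the tissue was dissected muscle vascular anomaly. The other 3 mice carried SB Transposase and onc3 but no Cre and gave normal muscle. Every animal thus held the transposase of the Sleeping Beauty system with its onc3 transposon, and VEC-Cre, by its name Cre recombinase under the promoter of the endothelial gene for VE-cadherin, was the only listed difference in genotype. The age of the animals is not given in the sources used here. Anomaly animal 2 gave 2 separate lesions, and each other animal gave 2 pieces. Animals were the replicates, with n = 3 in each group, and each p-value between groups measures the spread between animals.

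Replication begins when the origin recognition complex, with CDC6 and CDT1, loads the MCM helicase onto DNA in G1. In S phase kinases, MCM10, CDC45 and the GINS complex turn the loaded helicase into a moving one, and DNA polymerases copy the opened strands, held in place by a sliding clamp. E2F transcription factors switch on many of these genes at the passage from G1 to S. Adult muscle fibres have left the cell cycle, so most replication in muscle takes place in other cells of the tissue.

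Recovered depth was 254404 to 18476461 reads in anomaly libraries and 17380211 to 32155879 reads in normal libraries. The lowest depth, 254404, belonged to piece 1 of anomaly animal 1. There 1 read weighed 1.85 CPM (reads scaled to library size), against at most 0.0719 CPM in the other libraries, and each of the 48 genes rested on 1 to 28 reads. The tissue labels were checked against cell type markers. All 8 endothelial markers were higher in anomaly tissue, with a summed level of 2088 to 6163 CPM, against 283.1 to 439.3 CPM in normal muscle. All 8 muscle fibre markers were lower, at 223.0 to 31160 CPM in anomaly libraries, against 306700 to 358300 CPM in normal libraries, and the highest anomaly values were those of animal 3. All 8 macrophage markers were higher, at 305.1 to 1654 CPM in anomaly libraries and 19.95 to 131.7 CPM in normal libraries. The 4 markers of satellite cells, the stem cells of muscle, and of their myogenic progeny (Pax7, Myf5, Myod1 and Myog) were lower. Their sum was 0.053 to 20.79 CPM in anomaly libraries and 46.35 to 65.53 CPM in normal libraries, where most of it was Myod1 and Myog. Each was at 0 in at least 1 anomaly library, Myod1 only in the shallow piece. The 4 markers of dividing cells (Mki67, Top2a, Ccnb1 and Cdk1) were higher in every anomaly library, at 164.9 to 590.5 CPM, against 0.7455 to 1.756 CPM in normal libraries. The part that the changed mix of cells had in the values of replication genes was not tested. In bulk tissue, fewer cells of a type and less RNA per cell cannot be told apart.

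Most replication genes were far more abundant in anomaly tissue than in normal muscle. Tested with limma on log2(CPM + 1) per animal, with Benjamini-Hochberg adjustment over 14687 genes at 0.05, 41 of the 48 genes were higher in anomaly tissue and 2 were lower, and 5 did not pass. Of all genes tested, 32.4% were higher and 31% were lower. The median log2 fold change of the 48 genes was 2.19, against 0.09 over all genes tested. In 38 of the 48 genes all 6 anomaly libraries lay above all 6 normal libraries, and in 2 they lay below, against 28.8% and 27.6% of all genes tested. The 2 lower genes were Rpa1 and Rfc4, and the 5 that did not pass were Gins4, Rrm1, Ccne2, Fen1 and Rpa2. All 48 reached the filter level (1 CPM on average in either group), 16 of them through anomaly tissue alone, so that the filter itself required a higher level there. Fold changes on this scale understate the change of genes with low levels. The scaling moved all genes together. With library totals alone the median of all genes was 0.97. In limma 45 members were then higher and 0 lower, where 55.76% of all genes tested were higher and 11.51% lower. The estimates of all 48 lay above 0. With trimmed mean scaling on all reads the median of all genes was -0.33. There 39 members were higher and 3 lower, where 25.15% of all genes tested were higher and 40.35% lower. Relative to the median of all genes, the median of the 48 was higher by 2.10 with the deposited scaling, 2.23 with library totals and 2.21 with the trimmed mean.

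**Figure D1:**
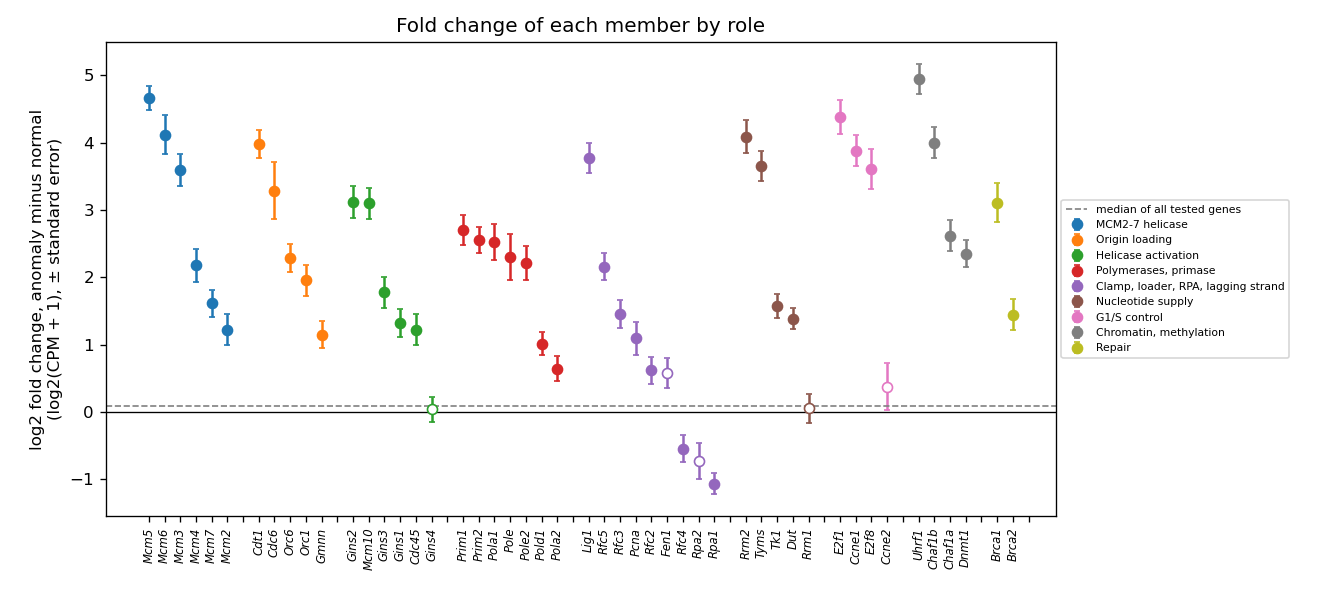
Log2 fold change of each of the 48 genes, anomaly minus normal, on log2(CPM + 1), grouped by role along the horizontal axis. Points are estimates from limma over 3 anomaly and 3 normal animals, bars are standard errors, open points did not pass an adjusted p of 0.05, and the dashed line is the median of all genes tested at 0.09. Uhrf1 and Mcm5 stand highest, at 4.95 and 4.66, and Rpa1 lowest, at -1.07.

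Promoter sequences were set beside this shared direction, because the words bound by E2F factors are written in the DNA before the start of many replication genes. RefSeq entries of GRCm38.p6 (250 bases before and 50 bases after the start, 300 in all) were found for 39 of the 48 genes. The E2F words searched were TTTCCCGC, TTTGGCGC, TTTCGCGC and TTTGCCGC on both strands, and words that overlap were each counted as a match. At least 1 such word stood in 16 of the 39 promoters (41.0%), against 2.61% of the promoters of 27025 genes. It stood in 16 of the 34 promoters of genes higher in anomaly tissue and in 0 of the 5 promoters of genes that were lower or did not pass. A link between word and direction was not tested. The second set has only 5 promoters, and the filter set the direction of some genes in the first, such as Orc1, Cdc6, Cdt1, Pole2 and Uhrf1. The word CCAAT, searched likewise, stood in 59.0% of the 39 promoters and in 41.1% of all. A match is a description of letters and not a site of binding. Shown are 5 stretches of 100 bases before the RefSeq start, outside the exons of the gene in GENCODE, from the gene with the largest fold change in its role that has such a stretch, 5′ to 3′ on the strand of the gene, with the E2F words in capitals. They are Mcm5 (chr8:75109310-75109409, plus strand), Cdc6 (chr11:98907982-98908081, plus strand), Pola1 (chrX:93632240-93632339, minus strand), Uhrf1 (chr17:56304082-56304181, plus strand) and Brca2 (chr5:150522407-150522506, plus strand).
Mcm5: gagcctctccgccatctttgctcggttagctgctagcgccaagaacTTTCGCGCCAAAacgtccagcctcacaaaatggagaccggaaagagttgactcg
Cdc6: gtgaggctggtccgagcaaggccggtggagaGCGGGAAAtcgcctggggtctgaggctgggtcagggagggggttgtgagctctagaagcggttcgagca
Pola1: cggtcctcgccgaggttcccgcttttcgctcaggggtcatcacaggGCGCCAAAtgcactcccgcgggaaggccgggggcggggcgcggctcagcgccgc
Uhrf1: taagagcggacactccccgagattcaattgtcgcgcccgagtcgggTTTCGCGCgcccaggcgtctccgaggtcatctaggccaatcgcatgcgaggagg
Brca2: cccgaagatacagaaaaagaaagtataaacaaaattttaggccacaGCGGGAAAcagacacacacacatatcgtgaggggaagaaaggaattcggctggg
In Mcm5 the capitals hold 2 overlapping words on opposite strands, TTTCGCGC on the strand of the gene and TTTGGCGC on the other. Cdc6 and Brca2 carry TTTCCCGC and Pola1 carries TTTGGCGC, each on the opposite strand, and Uhrf1 carries TTTCGCGC on its own strand. The stretches of Cdc6 and Uhrf1 lie inside the gene as GENCODE draws it, since that annotation also has an earlier start.

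The MCM2 to MCM7 proteins form the ring of the replicative helicase, which unwinds DNA at the fork. All 6 of their genes rose, but by amounts from 1.22 to 4.66 on the log2 scale. Mcm5 (ENSMUSG00000005410, GRCm38 chromosome 8, 75109569 to 75128439) had 29.6 and 94.9 CPM for anomaly animal 1, 93.3 and 52.6 for animal 2 and 56.2 and 61.3 for animal 3, against 1.86 and 1.19 CPM for normal animal 1, 1.42 and 1.22 for animal 2 and 1.22 and 1.701 for animal 3. Every anomaly library lay above every normal library, and the lowest was the shallow piece of animal 1. The fold change was 4.66 ± 0.18 (adjusted p = 0.000105), on means of 64.7 ± 7.39 CPM in anomaly tissue and 1.44 ± 0.102 CPM in normal muscle (SD, n = 3 animals each). Mcm6 had 44.5 and 118.5 CPM for anomaly animal 1, 115.5 and 85.6 for animal 2 and 49.8 and 56.2 for animal 3, against 3.82 and 3.69 CPM for normal animal 1, 4.81 and 3.19 for animal 2 and 2.09 and 2.49 for animal 3. Its anomaly libraries were again all above the normal ones, with animal 3 the lowest of the anomaly animals, and the fold change was 4.11 ± 0.29 (adjusted p = 0.000202). Mcm3 had 35.2 and 125.8 CPM for anomaly animal 1, 127.5 and 83.8 for animal 2 and 60.95 and 62.1 for animal 3, against 5.94 and 5.56 CPM for normal animal 1, 6.699 and 5.17 for animal 2 and 5.25 and 3.798 for animal 3. The groups did not overlap, and the fold change was 3.59 ± 0.24 (adjusted p = 0.000186). Mcm4 had 18.5 and 59.5 CPM for anomaly animal 1, 56.1 and 34.5 for animal 2 and 23.7 and 24.3 for animal 3, against 6.66 and 7.495 CPM for normal animal 1, 5.99 and 6.44 for animal 2 and 5.97 and 6.46 for animal 3. Mcm7 had 12.97 and 39.1 CPM for anomaly animal 1, 47.3 and 26.6 for animal 2 and 32.2 and 29.8 for animal 3, against 8.68 and 9.06 CPM for normal animal 1, 8.92 and 8.200 for animal 2 and 8.63 and 10.03 for animal 3. In both genes the groups stayed apart at a smaller distance, with fold changes of 2.18 ± 0.24 (adjusted p = 0.00074) for Mcm4 and 1.61 ± 0.20 (adjusted p = 0.0011) for Mcm7. Of the Mcm7 exons, 12.6% overlap other genes (Ap4m1, Cops6 and 2 microRNAs), and the libraries were unstranded. Mcm2 (ENSMUSG00000002870, GRCm38 chromosome 6, 88883474 to 88898780) had 22.2 and 76.8 CPM for anomaly animal 1, 85.01 and 42.4 for animal 2 and 35.7 and 39.5 for animal 3, against 21.1 and 21.9 CPM for normal animal 1, 16.3 and 16.1 for animal 2 and 17.9 and 20.9 for animal 3. The shallow piece at 22.2 CPM lay just above the highest normal library at 21.9 CPM, and the fold change was 1.22 ± 0.22 (adjusted p = 0.00409). Per kilobase of merged exon, the levels of the 6 genes in normal muscle ran from 0.3597 CPM for Mcm5 to 2.74 CPM for Mcm2, and in anomaly tissue Mcm3 stood highest at 22.01 CPM and Mcm7 lowest at 7.08 CPM.

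**Figure D2:**
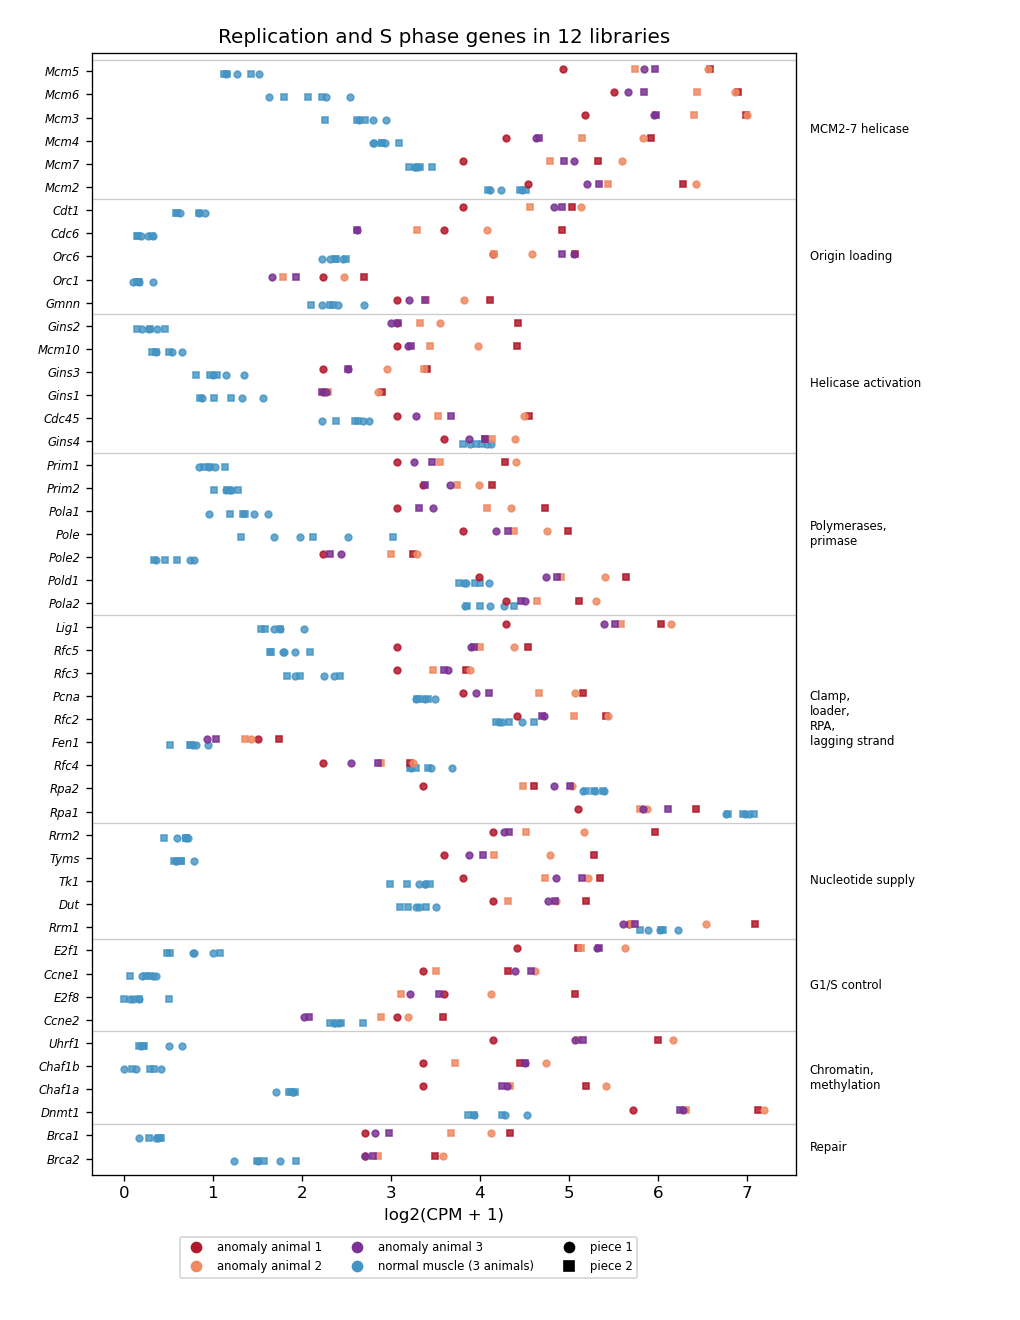
Level of each of the 48 genes in all 12 libraries as log2(CPM + 1), grouped by role from top to bottom and ordered by fold change within a role. Red, orange and violet points are anomaly animals 1, 2 and 3, blue points are the 3 normal animals, and circles and squares are the 2 pieces of an animal; points of anomaly libraries sit right of normal ones in 38 genes and left of them in Rpa1 and Rpa2.

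Genes that load the helicase onto origins rose in 5 of 5 cases. Of these, Orc1, Cdc6 and Cdt1 entered the fit through anomaly tissue alone, so the filter set their direction. Cdt1, whose product brings the MCM ring to the origin (ENSMUSG00000006585, GRCm38 chromosome 8, 122568015 to 122573554), had 12.97 and 31.8 CPM for anomaly animal 1, 34.2 and 22.6 for animal 2 and 27.6 and 29.2 for animal 3, against 0.878 and 0.4997 CPM for normal animal 1, 0.544 and 0.799 for animal 2 and 0.791 and 0.5102 for animal 3. The groups did not overlap, and the fold change was 3.98 ± 0.21 (adjusted p = 0.000111). Cdc6, the ATPase that works with CDT1, had 11.1 and 29.3 CPM for anomaly animal 1, 15.95 and 8.84 for animal 2 and 5.12 and 5.13 for animal 3, against 0.207 and 0.2498 CPM for normal animal 1, 0.251 and 0.106 for animal 2 and 0.144 and 0.113 for animal 3. All anomaly libraries lay above all normal ones, and the level in anomaly tissue was highest in animal 1 and lowest in animal 3. Its fold change was 3.29 ± 0.42 (adjusted p = 0.00116). The levels in normal muscle rest on few reads, 20 over the 6 normal libraries for Cdc6. Orc6 and Orc1, subunits of the origin recognition complex, averaged 25.1 ± 5.42 CPM in anomaly tissue and 4.196 ± 0.128 CPM in normal muscle for Orc6 and 3.53 ± 1.05 CPM in anomaly tissue and 0.133 ± 0.0517 CPM in normal muscle for Orc1 (SD, n = 3 animals each), with fold changes of 2.28 ± 0.21 (adjusted p = 0.0004) and 1.95 ± 0.23 (adjusted p = 0.000847). Orc1 had 15 reads over the 6 normal libraries. Gmnn encodes geminin, the protein that binds CDT1 and blocks a further round of loading. It had 7.41 and 16.3 CPM for anomaly animal 1, 13.1 and 9.53 for animal 2 and 8.24 and 9.39 for animal 3, against 3.67 and 3.31 CPM for normal animal 1, 5.48 and 3.99 for animal 2 and 4.32 and 4.08 for animal 3. Its anomaly libraries lay above the normal ones by a small margin in the shallow piece, and the fold change of 1.15 ± 0.20 (adjusted p = 0.00344) was the smallest of the loading genes.

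Of the 6 genes for factors that turn the loaded ring into an active helicase, 5 rose and Gins4 did not pass. For Mcm10 and Gins2 the filter itself required a higher level in anomaly tissue. Gins2, a subunit of the GINS complex, had 7.41 and 20.5 CPM for anomaly animal 1, 10.8 and 9.07 for animal 2 and 6.99 and 7.47 for animal 3, against 0.155 and 0.375 CPM for normal animal 1, 0.293 and 0.106 for animal 2 and 0.216 and 0.227 for animal 3. The groups were far apart, and the fold change was 3.12 ± 0.24 (adjusted p = 0.000254), but 67.3% of the exonic bases of Gins2 overlap Gse1, so its unstranded counts are uncertain. Mcm10, a factor that binds the helicase as it starts, averaged 11.5 ± 2.898 CPM in anomaly tissue and 0.379 ± 0.0829 CPM in normal muscle (SD, n = 3 animals each) with a fold change of 3.10 ± 0.22 (adjusted p = 0.000219). Gins3 and Gins1, further GINS subunits, had fold changes of 1.78 ± 0.23 (adjusted p = 0.00118) and 1.32 ± 0.21 (adjusted p = 0.00233). Cdc45, the partner of GINS in the active helicase, had one of 1.22 ± 0.23 (adjusted p = 0.00421). In these 4 genes no anomaly library overlapped a normal one. Gins4, the remaining subunit of the same complex (ENSMUSG00000031546, GRCm38 chromosome 8, 23226616 to 23237659), had 11.1 and 15.6 CPM for anomaly animal 1, 20.1 and 16.6 for animal 2 and 13.7 and 15.6 for animal 3, against 15.9 and 14.5 CPM for normal animal 1, 13.8 and 12.99 for animal 2 and 16.5 and 15.3 for animal 3. Its libraries overlapped throughout, with a log2 difference of 0.04 ± 0.18 (adjusted p = 0.858). The estimate for Gins4 lay below 0 under trimmed mean scaling (-0.38) and above it with library totals alone (1.13, adjusted p = 0.00283), so its direction depends on the scaling.

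All 7 genes for polymerases and primase rose, by 0.64 to 2.70. For Prim1 and Pole2 the filter itself required a higher level in anomaly tissue. Prim1, the catalytic subunit of primase, which lays down RNA primers, had 7.41 and 18.4 CPM for anomaly animal 1, 20.2 and 10.8 for animal 2 and 8.58 and 10.04 for animal 3, against 1.03 and 0.874 CPM for normal animal 1, 0.795 and 0.958 for animal 2 and 0.935 and 1.19 for animal 3. The groups did not overlap, and the fold change was 2.70 ± 0.23 (adjusted p = 0.000313). Prim2, the large primase subunit, and Pola1, the catalytic subunit of polymerase alpha, had fold changes of 2.55 ± 0.19 (adjusted p = 0.000248) and 2.52 ± 0.27 (adjusted p = 0.00062). Pole, the catalytic subunit of the leading-strand polymerase epsilon, averaged 20.9 ± 2.55 CPM in anomaly tissue and 3.65 ± 2.09 CPM in normal muscle (SD, n = 3 animals each), with a fold change of 2.30 ± 0.34 (adjusted p = 0.00188) and normal libraries between 1.499 and 7.14 CPM. Pole2, an accessory subunit of the same enzyme, changed by 2.21 ± 0.25 (adjusted p = 0.000763). Pold1 encodes the catalytic subunit of the lagging-strand polymerase delta and averaged 31.4 ± 4.19 CPM in anomaly tissue and 14.1 ± 1.33 CPM in normal muscle, with a fold change of 1.01 ± 0.17 (adjusted p = 0.00313). In Pold1 the shallow piece of anomaly animal 1, at 14.8 CPM, lay within the normal range of 12.6 to 16.1 CPM, and the other anomaly libraries lay above it. Pola2, the accessory subunit of polymerase alpha, had 18.5 and 33.7 CPM for anomaly animal 1, 38.4 and 23.9 for animal 2 and 21.8 and 21.01 for animal 3, against 13.2 and 15.1 CPM for normal animal 1, 16.3 and 19.9 for animal 2 and 18.3 and 13.5 for animal 3. Its groups overlapped in the shallow piece, and the fold change was 0.64 ± 0.19 (adjusted p = 0.0243). The call of Pola2 was lost without anomaly animal 2 (0.52, adjusted p = 0.066), without normal animal 1 (0.56, adjusted p = 0.0961), without normal animal 3 (0.64, adjusted p = 0.0764), with each piece alone (0.63 and 0.66) and with trimmed mean scaling (0.22).

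Genes of the clamp, its loader, the single-strand binding protein and the joining of lagging strands moved in both directions, with 5 higher, 2 lower and 2 that did not pass. Lig1, the ligase that seals nicks between Okazaki fragments, had 18.5 and 64.7 CPM for anomaly animal 1, 70.1 and 47.2 for animal 2 and 41.01 and 44.7 for animal 3, against 2.38 and 1.999 CPM for normal animal 1, 3.06 and 1.92 for animal 2 and 2.23 and 2.38 for animal 3. No anomaly library overlapped a normal one, and the fold change was 3.77 ± 0.22 (adjusted p = 0.000143). Pcna, the sliding clamp, averaged 22.5 ± 6.61 CPM in anomaly tissue and 9.34 ± 0.605 CPM in normal muscle (SD, n = 3 animals each), with a fold change of 1.09 ± 0.24 (adjusted p = 0.00849). Reads of Pcna may be shared with the pseudogenes Pcna-ps1 and Pcna-ps2. The clamp loader subunits Rfc5, Rfc3 and Rfc2 rose by 2.15 ± 0.20 (adjusted p = 0.000435), 1.46 ± 0.21 (adjusted p = 0.00173) and 0.62 ± 0.20 (adjusted p = 0.0323). Rfc2 overlapped between groups in the shallow piece, and its call was lost without anomaly animal 2 (0.47, adjusted p = 0.0837), normal animal 1 (0.72, adjusted p = 0.0533), normal animal 2 (0.55, adjusted p = 0.112) or normal animal 3 (0.59, adjusted p = 0.0993). It was also lost with trimmed mean scaling (0.19, adjusted p = 0.403) and with no filter (0.62, adjusted p = 0.0528). Rfc4, a further subunit of the same loader (ENSMUSG00000022881, GRCm38 chromosome 16, 23113943 to 23127737), had 3.71 and 8.27 CPM for anomaly animal 1, 8.48 and 6.395 for animal 2 and 4.88 and 6.22 for animal 3, against 9.97 and 8.31 CPM for normal animal 1, 8.37 and 8.73 for animal 2 and 11.9 and 9.69 for animal 3. Lesion 1 of anomaly animal 2 reached the normal range, and the other 5 anomaly libraries lay below all normal ones. Its fold change was -0.55 ± 0.20 (adjusted p = 0.0491), a call lost with anomaly animal 1 by its deeper piece alone (-0.39, adjusted p = 0.164) and without any of 5 of the 6 animals (-0.61 to -0.46), all except anomaly animal 2, and its estimate was 0.47 with library totals alone.

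Replication protein A coats single-stranded DNA at the fork, and neither of its subunit genes among the 48 was higher in anomaly tissue. Rpa1, the large subunit (ENSMUSG00000000751, GRCm38 chromosome 11, 75298166 to 75348324), had 33.4 and 84.95 CPM for anomaly animal 1, 57.8 and 54.6 for animal 2 and 55.9 and 68.4 for animal 3, against 125.2 and 123.1 CPM for normal animal 1, 107.5 and 109.1 for animal 2 and 128.8 and 133.8 for animal 3. All 6 anomaly libraries lay below all 6 normal ones, and the fold change was -1.07 ± 0.16 (adjusted p = 0.0018), on means of 59.2 ± 2.98 CPM in anomaly tissue and 121.2 ± 11.8 CPM in normal muscle (SD, n = 3 animals each). With library totals alone the estimate for Rpa1 was 0.07 (adjusted p = 0.674), so its direction depends on the scaling. Rpa2, the middle subunit, had 9.27 and 23.3 CPM for anomaly animal 1, 31.7 and 21.3 for animal 2 and 27.4 and 31.3 for animal 3, against 38.2 and 37.8 CPM for normal animal 1, 34.8 and 35.5 for animal 2 and 41.1 and 40.8 for animal 3. Its libraries did not overlap either, with the shallow piece far below the other 5 anomaly libraries, and the difference of -0.73 ± 0.27 (adjusted p = 0.0508) did not pass. With the shallow piece left out, the difference of Rpa2 was -0.52 and passed (adjusted p = 0.0223), and with library totals alone it was 0.39 (adjusted p = 0.185). Rpa3, the small subunit, is not among the 48 and is named after its values were seen. It had a fold change of 0.74 ± 0.24 (adjusted p = 0.0341). Fen1, the nuclease that trims the flaps of Okazaki fragments, had 1.85 and 2.34 CPM for anomaly animal 1, 1.696 and 1.57 for animal 2 and 0.916 and 1.06 for animal 3, against 0.9295 and 0.437 CPM for normal animal 1, 0.754 and 0.692 for animal 2 and 0.719 and 0.6803 for animal 3. The groups met at low levels in piece 1 of anomaly animal 3, the difference was 0.58 ± 0.22 (adjusted p = 0.061), and 84.2% of its exonic bases overlap Gm10143 and Tmem258, so the counts of Fen1 are uncertain. The difference of Fen1 passed without anomaly animal 3 (0.75, adjusted p = 0.0116), with library totals alone (1.22, adjusted p = 0.00989) and in a fit to 12 libraries that took the animal as a random effect (adjusted p = 0.0235).

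Nucleotide supply was marked by a contrast between the subunits of ribonucleotide reductase, the enzyme that makes deoxynucleotides. Rrm2, its small subunit, made in S phase (ENSMUSG00000020649, GRCm38 chromosome 12, 24708241 to 24714146), had 16.7 and 61.4 CPM for anomaly animal 1, 34.9 and 21.9 for animal 2 and 18.4 and 19.1 for animal 3, against 0.516 and 0.6246 CPM for normal animal 1, 0.628 and 0.373 for animal 2 and 0.647 and 0.624 for animal 3. The groups were far apart, with the deeper piece of anomaly animal 1 the highest, and the fold change was 4.09 ± 0.25 (adjusted p = 0.000144). Rrm1, the large subunit (ENSMUSG00000030978, GRCm38 chromosome 7, 102441695 to 102469771), had 50.03 and 134.9 CPM for anomaly animal 1, 91.8 and 51.3 for animal 2 and 47.6 and 52.7 for animal 3, against 73.8 and 64.5 CPM for normal animal 1, 58.3 and 54.8 for animal 2 and 64.2 and 65.7 for animal 3. Its groups overlapped, with the deeper piece of animal 1 and lesion 1 of animal 2 above all normal libraries and the other 4 anomaly libraries below them all, at a difference of 0.05 ± 0.22 (adjusted p = 0.841). The estimate for Rrm1 was -0.38 with trimmed mean scaling and 1.19 with library totals alone (adjusted p = 0.00716). Tyms, thymidylate synthase, and Tk1, thymidine kinase, which make and salvage the thymidine nucleotide, rose by 3.65 ± 0.22 (adjusted p = 0.000144) and 1.57 ± 0.18 (adjusted p = 0.00082). Tyms may share reads with the pseudogene Tyms-ps. Dut, the enzyme that removes dUTP, had 16.7 and 35.6 CPM for anomaly animal 1, 27.9 and 18.8 for animal 2 and 26.1 and 27.8 for animal 3, against 10.3 and 9.49 CPM for normal animal 1, 8.75 and 7.61 for animal 2 and 8.92 and 8.16 for animal 3. No library overlapped, and its fold change of 1.39 ± 0.16 (adjusted p = 0.00084) was the smallest among the 4 genes of this role that rose. Of these 4, Rrm2 and Tyms entered the fit through anomaly tissue alone, so the filter set their direction.

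Among the 4 genes that control the passage into S phase, 3 rose. These 3, E2f1, E2f8 and Ccne1, entered the fit through anomaly tissue alone, so the filter set their direction. E2f1, an activating E2F factor (ENSMUSG00000027490, GRCm38 chromosome 2, 154559407 to 154569892), had 20.4 and 33.4 CPM for anomaly animal 1, 48.5 and 34.1 for animal 2 and 38.8 and 39.4 for animal 3, against 0.723 and 0.437 CPM for normal animal 1, 1.005 and 1.12 for animal 2 and 0.719 and 0.397 for animal 3. All anomaly libraries lay far above all normal ones, and the fold change was 4.38 ± 0.25 (adjusted p = 0.000139). E2f8, a repressing E2F factor, averaged 14.4 ± 6.49 CPM in anomaly tissue and 0.133 ± 0.126 CPM in normal muscle (SD, n = 3 animals each), with a fold change of 3.61 ± 0.29 (adjusted p = 0.000295) and 15 reads over the 6 normal libraries. In 1 normal library E2f8 had 0 reads, which allows a level of up to 0.170 CPM at 3 counts, counting error only. Ccne1 encodes cyclin E1, the partner of CDK2 at the start of S phase (ENSMUSG00000002068, GRCm38 chromosome 7, 38097984 to 38107534). It had 9.27 and 18.97 CPM for anomaly animal 1, 23.6 and 10.3 for animal 2 and 20.05 and 22.8 for animal 3, against 0.155 and 0.187 CPM for normal animal 1, 0.251 and 0.0532 for animal 2 and 0.288 and 0.227 for animal 3. The groups did not overlap, and the fold change was 3.88 ± 0.23 (adjusted p = 0.000143). Ccne2, the gene of the sister protein cyclin E2 (ENSMUSG00000028212, GRCm38 chromosome 4, 11191351 to 11204779), had 7.41 and 11.01 CPM for anomaly animal 1, 8.16 and 6.395 for animal 2 and 3.05 and 3.24 for animal 3, against 4.34 and 4.43 CPM for normal animal 1, 4.14 and 3.99 for animal 2 and 4.17 and 5.44 for animal 3. Both libraries of anomaly animal 3 lay below all normal libraries, those of anomaly animals 1 and 2 above them all, and the difference of 0.37 ± 0.35 (adjusted p = 0.377) did not pass. Without anomaly animal 3 it was 0.75 and passed (adjusted p = 0.0171), as it did with library totals alone (1.36, adjusted p = 0.0275). Of the exonic bases of Ccne2, 17.4% overlap Ints8.

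Chromatin and methylation genes rose in 4 of 4 cases. Of these, Uhrf1 and Chaf1b entered the fit through anomaly tissue alone, so the filter set their direction. Uhrf1, which brings the maintenance methyltransferase to new DNA (ENSMUSG00000001228, GRCm38 chromosome 17, 56303321 to 56323486), had 16.7 and 63.02 CPM for anomaly animal 1, 70.9 and 33.3 for animal 2 and 32.6 and 34.8 for animal 3, against 0.568 and 0.125 CPM for normal animal 1, 0.419 and 0.1598 for animal 2 and 0.144 and 0.1701 for animal 3. The groups were far apart, and the fold change of 4.95 ± 0.23 (adjusted p = 0.000105) was the largest of the 48 genes. Chaf1b and Chaf1a encode subunits of the chromatin assembly factor, which places histones behind the fork. Chaf1b averaged 18.6 ± 3.31 CPM in anomaly tissue and 0.166 ± 0.118 CPM in normal muscle and Chaf1a 23.7 ± 6.15 CPM in anomaly tissue and 2.63 ± 0.141 CPM in normal muscle (SD, n = 3 animals each), with fold changes of 4.0 ± 0.23 (adjusted p = 0.000142) and 2.62 ± 0.23 (adjusted p = 0.000342). In 1 normal library Chaf1b had 0 reads, which allows up to 0.216 CPM at 3 counts, and 52.5% of the exonic bases of Chaf1a overlap Ubxn6. Smaller exonic overlaps with other genes, of 10.7% to 15.1%, affect Rfc5, Orc1, E2f8, Rfc4 and Rfc2. Dnmt1, the maintenance methyltransferase itself, had 51.9 and 138.0 CPM for anomaly animal 1, 144.6 and 78.3 for animal 2 and 76.5 and 74.8 for animal 3, against 22.1 and 18.1 CPM for normal animal 1, 18.4 and 13.5 for animal 2 and 14.3 and 14.2 for animal 3. Here too no library overlapped, and the fold change was 2.35 ± 0.20 (adjusted p = 0.000331). The repair genes Brca1 and Brca2, which serve homologous recombination at damaged forks, both rose. For Brca1 the filter itself required a higher level in anomaly tissue. Brca1 had 5.56 and 19.2 CPM for anomaly animal 1, 16.5 and 11.8 for animal 2 and 6.07 and 6.904 for animal 3, against 0.3098 and 0.312 CPM for normal animal 1, 0.126 and 0.213 for animal 2 and 0.288 and 0.3401 for animal 3. Brca2 had 5.56 and 10.3 CPM for anomaly animal 1, 11.02 and 6.22 for animal 2 and 5.56 and 5.96 for animal 3, against 2.38 and 2.81 CPM for normal animal 1, 1.84 and 1.97 for animal 2 and 1.37 and 1.81 for animal 3. Neither gene overlapped between groups, and the fold changes were 3.11 ± 0.29 (adjusted p = 0.00043) for Brca1 and 1.44 ± 0.23 (adjusted p = 0.00256) for Brca2.

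Partner genes were compared as ratios of their levels per kilobase of merged exon, for 9 pairs. The pairs were chosen with the fold changes known and are given as a description, with no test. The ratio of Ccne1 to Ccne2 was 2.01, 3.07 and 8.94 in anomaly animals 1, 2 and 3, against 0.0512, 0.0491 and 0.0703 in normal animals 1, 2 and 3. Cyclin E2 transcripts were thus the more abundant in every normal animal and cyclin E1 transcripts in every anomaly animal. The ratio of Rrm2 to Rrm1 averaged 1.58 ± 0.0962 in anomaly tissue and 0.0356 ± 0.00308 in normal muscle (SD, n = 3 animals each). Rrm2b encodes the small subunit that works outside S phase, and the ratio of Rrm2 to Rrm2b was 14.6 ± 3.44 in anomaly tissue and 0.0579 ± 0.0136 in normal muscle. For Cdt1 over its inhibitor Gmnn the ratio was 1.19 ± 0.311 in anomaly tissue and 0.0769 ± 0.0136 in normal muscle. Mcm5 over Mcm2 gave 2.30 ± 0.377 in anomaly tissue and 0.132 ± 0.00968 in normal muscle, and Mcm3 over Mcm7 gave 3.12 ± 0.687 in anomaly tissue and 0.718 ± 0.129 in normal muscle. Gins2 over Gins4 stayed below 1 in both groups, at 0.228 ± 0.101 in anomaly tissue and 0.00508 ± 0.000593 in normal muscle. Chaf1b over Chaf1a was 1.56 ± 0.584 in anomaly tissue and 0.118 ± 0.0828 in normal muscle. E2f1 over E2f3, another activating E2F factor, was 3.36 ± 1.16 in anomaly tissue and 0.0448 ± 0.0183 in normal muscle. In each of the 9 pairs no anomaly animal overlapped a normal one, which the choice of pairs with unlike fold changes favoured. These ratios were taken on the mean CPM of the 2 libraries of an animal. The scaling of a library therefore does not cancel in them, since it sets the weight of each piece.

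**Figure D3:**
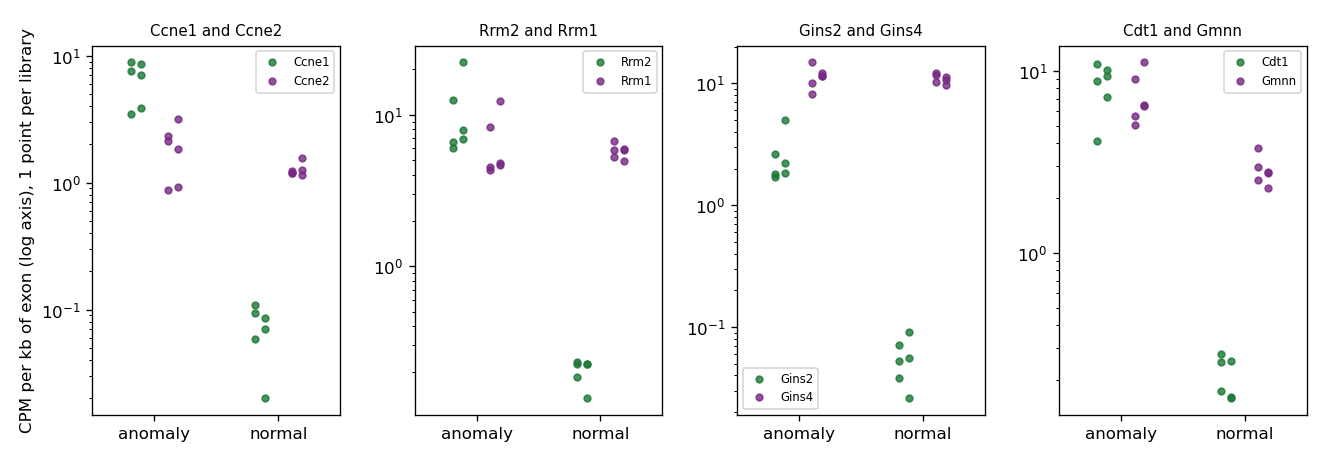
Level of 4 pairs of partner genes in CPM per kilobase of merged exon on a log axis, 1 point per library, with the 6 anomaly libraries left of the 6 normal libraries in each panel. The first-named gene of each pair (green) lies below its partner (violet) in all normal libraries, and Ccne1 lies above Ccne2 in all anomaly libraries.

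The 3 anomaly animals were also set against one another. The median difference of the 48 genes from normal muscle was 2.21 in anomaly animal 1, 2.42 in animal 2 and 1.95 in animal 3. Animal 2 had the highest mean of the anomaly animals in 31 of the 48 genes, and animal 3 had the lowest in 32. The values of animal 1 include its shallow piece, which was lower than its deeper piece in all 48 genes. By itself the deeper piece had a median difference of 2.71, the highest of the 6 anomaly libraries. A moderated F test among the 3 anomaly animals, on their 6 libraries in limma, called 0 of the 48 genes, against 16.3% of all 13815 genes tested. Its p-values reflect no more than how far pieces lay apart. Between the 2 libraries of animal 1, and those of animal 2, 48 and 47 of the 48 genes differed in the same direction. That difference is part of the spread, so 0 calls cannot show that the animals were alike. Cdc6 and Ccne2 had an unadjusted p under 0.05 in this F test (0.019 and 0.0139), as did 4168 of the 13815 genes tested. Both were highest in animal 1 and lowest in animal 3. With library totals alone 2 genes, Cdc6 and Ccne2, were called, and with median-of-ratios scaling 1, Ccne2. Of all genes tested, 16.82% were called with library totals and 17.21% with median-of-ratios scaling. Of 4 erythroid markers, 2 rose (Alas2 and Slc4a1). The list, most of whose sum was Alas2, ran in the same order, with summed levels of 1960 and 1040 CPM in the libraries of anomaly animal 1, 80.61 and 137.6 CPM in those of animal 2 and 28.93 and 42.63 CPM in those of animal 3, against 4.497 to 12.77 CPM in normal libraries, and its part in these values was not tested. Macrophage markers, of which 3 of 8 were called among the anomaly animals, summed to 700.4 and 1654 CPM in animal 1, 1107 and 1559 CPM in animal 2 and 388.3 and 305.1 CPM in animal 3. Muscle fibre markers, of which 7 of 8 were called among the anomaly animals, summed to 248.3 and 2301 CPM in animal 1, 223.0 and 522.3 CPM in animal 2 and 10010 and 31160 CPM in animal 3. The part of these cells was not tested either.

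The pieces of each anomaly animal were also compared. In anomaly animal 1 the shallow piece was lower than the deeper piece in 48 of 48 genes, with a median difference of -1.32. It was -0.64 over the 10199 genes with at least 5 CPM in the deeper piece, of which 91.0% were lower in the shallow piece. This filter was set on piece 2, or lesion 2, of each animal, which favours lower values in the other library. Over all 14687 genes tested the medians were -0.46, 0.014 and -0.009 in anomaly animals 1, 2 and 3. In anomaly animal 2, lesion 1 was higher than lesion 2 in 47 of 48 genes, with a median difference of 0.55, against 0.04 over 10527 such genes, of which 46.2% were lower in lesion 1. In anomaly animal 3, piece 1 was lower than piece 2 in 37 genes and higher in 11, with a median difference of -0.09, and 52.0% of 10359 such genes were lower. Dividing-cell markers followed the same order, at 164.9 CPM in piece 1 and 590.5 CPM in piece 2 of animal 1, and at 439.1 CPM in lesion 1 and 229.1 CPM in lesion 2 of animal 2. Their part, like that of depth, was not tested. The deeper piece of animal 1 held the highest anomaly value in 28 genes and lesion 1 of animal 2 in the other 20. The shallow piece held the lowest in 40. With it left out, 41 genes were higher and 2 lower, the lower ones being Rpa1 and Rpa2, and the median fold change was 2.42. Of all genes tested, 33.52% were then higher and 30.85% lower.

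**Figure D4:**
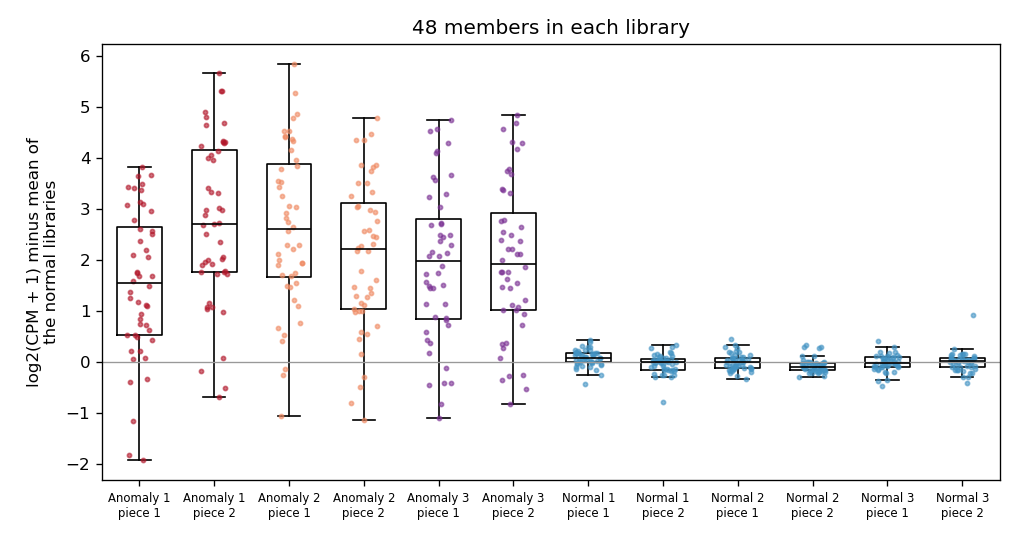
Distribution of the 48 genes in each library as log2(CPM + 1) minus the mean of the 6 normal libraries for the same gene, with anomaly libraries left of normal ones. Boxes span the quartiles around the median, whiskers reach the last point within 1.5 times the box, and points are genes. Medians of the anomaly libraries lie between 1.55 in piece 1 of animal 1 and 2.71 in piece 2 of the same animal, and those of the normal libraries between -0.09 and 0.09.

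The genes were also grouped by their level in normal muscle. In 16 genes with a mean under 1 CPM in normal muscle, among them Uhrf1, E2f1, Rrm2, Chaf1b, Cdt1 and Ccne1, the means in anomaly tissue were 1.57 to 41.9 CPM. These 16 genes entered the fit through anomaly tissue alone, so the filter set their direction and no count of rises is given. In the 16 genes between 1 and 5 CPM, 15 rose, with a median of 2.22. In the 16 genes at 5 CPM or more, 11 rose and 2 fell, with a median of 1.05, and this group holds Gins4, Rrm1, Rpa1, Rpa2 and Rfc4. The normal level enters the fold change itself, so this ordering is a description and was not tested.

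Other genes of replication were listed by function and not by their change, though with earlier results of these data known. Of 67 such genes, 44 were higher in anomaly tissue, 9 were lower and 14 did not pass, where 32.4% of all genes tested were higher and 31% lower. The 44 include genes, named below, that entered the fit through anomaly tissue alone, so the filter set their direction. Their median log2 fold change was 1.39, against 0.09 over all genes. In 40 of them all anomaly libraries lay above all normal ones, and in 5 below, against 28.8% and 27.6% of all genes tested. The 3 largest rises were those of Ccna2, encoding the S phase cyclin A2, Dbf4, the activating subunit of the CDC7 kinase, and Clspn, encoding the checkpoint mediator claspin. All 3 averaged under 1 CPM in normal muscle and are among the genes limited by the filter. Ccna2 averaged 44.4 ± 7.71 CPM in anomaly tissue and 0.314 ± 0.257 CPM in normal muscle (SD, n = 3 animals each), with a fold change of 5.05 ± 0.22 (adjusted p = 0.000105). Dbf4 and Clspn changed by 4.26 ± 0.25 (adjusted p = 0.000143) and 3.99 ± 0.19 (adjusted p = 0.00011). The 3 largest falls were in Rrm2b (-2.21 ± 0.19 (adjusted p = 0.000353)), in Rbl2, encoding the pocket protein p130, which holds E2F genes off in resting cells (-2.17 ± 0.25 (adjusted p = 0.000763)), and in Shmt1, a serine hydroxymethyltransferase that feeds thymidylate synthesis (-2.17 ± 0.25 (adjusted p = 0.000836)). Rrm2b averaged 6.400 ± 1.17 CPM in anomaly tissue and 32.95 ± 3.76 CPM in normal muscle, Rbl2 16.1 ± 5.22 CPM in anomaly tissue and 73.1 ± 8.86 CPM in normal muscle and Shmt1 5.399 ± 1.21 CPM in anomaly tissue and 27.5 ± 7.65 CPM in normal muscle (SD, n = 3 animals each), and none of the 3 overlapped between groups. Smaller falls included those of the origin recognition genes Orc3 (-0.77) and Orc5 (-0.51), the polymerase subunits Pole4 (-0.75) and Pold2 (-0.61) and the E2F gene E2f3 (-0.59). All 5 of these estimates lay above 0 with library totals alone, at 0.36 for Orc3, 0.56 for Orc5, 0.34 for Pole4, 0.50 for Pold2 (adjusted p = 0.0478) and 0.52 for E2f3. Of these 5 calls, that of Orc3 was lost in no other alternative. Besides library totals alone, the others were lost in 13 of the 21 alternatives for Pold2, 11 for Orc5, 7 for E2f3 and 5 for Pole4. Leaving out an animal ended the call of Pold2 without anomaly animals 1 or 2 or any normal animal (-0.71 to -0.48), of Orc5 without anomaly animals 1 or 3 or any normal animal (-0.53 to -0.40), of E2f3 without any normal animal (-0.60 to -0.56) and of Pole4 without normal animals 1 or 2 (-0.70 and -0.7049). Of the 67 genes, 58 were higher and 3 lower with library totals alone, where 55.76% of all genes tested were higher and 11.51% lower. Repair genes rose in 11 of 12 cases, with a median of 2.26, and other fork genes in 9 of 15, with a median of 0.99. The filter itself required a higher level in anomaly tissue for the repair genes Rad54l, Fancd2, Fanci, Bard1, Palb2, Exo1, Rad51ap1 and Brip1. The same holds for Clspn and Mms22l among the fork genes. It also holds for Cdc7, Ticrr, E2f7, Asf1b, Hells and Chek1 among the remaining genes, besides Ccna2 and Dbf4. E2F words stood in 17 of the 55 promoters found for these genes (30.9%).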

How the data were processed

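RNA of frozen tissue was purified on Qiagen columns and sequenced from poly-A selected, unstranded TruSeq libraries, per the labels' protocols. STAR, limma and the build mm10 (GRCm38) are named, without versions, per the submitters' processing notes. The authors deposited 1 table of log2 values of CPM for 30389 Ensembl genes. The method behind the library sizes is not given in the sources used here.

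A common floor of -6.707 was removed, and 100% of the values were then whole multiples of 1 read within 0.01 in every library, which gave the depth. In the shallow piece 18740 genes were above 0 at 254404 units, so these units may not be reads as sequenced. Counting error only is covered by limits at 3 counts. Animals are numbered in the order of deposit. The design foresaw log2 values. After CPM was recovered, each animal got the mean log2(CPM + 1) of its 2 libraries. Genes that averaged 1 CPM or more in either group, 14687 in number, entered a limma fit (version 3.58.1, R 4.3.3, eBayes with a trend and without the robust option), and p-values were adjusted by Benjamini-Hochberg with a threshold of 0.05. The F test among anomaly animals used 6 libraries and 13815 genes. The fit was tested on simulated data.

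Members and lists were chosen with earlier results of these data known. All 48 members are named, with every library given for Mcm2 to Mcm7, for the largest and the smallest change of each role and for members that were lower, did not pass or differed in pattern between animals. Of other replication genes, the 3 largest rises and falls and the genes called lower are named, except 1 that is not reported here. Promoters came from RefSeq (GRCm38.p6), and exons, overlaps and coordinates from GENCODE vM21, in which 30294 of the 30389 identifiers were found. The stretches printed were limited, after the words had been placed, to bases outside the exons of the gene. Whether piece numbers pair the samples could not be told. Alternatives in scaling, filter, pseudocount, threshold, piece, blocking and animals left out are given with the limits.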

Additional observations from a re-analysis of the deposited data

Results flagged for a closer look

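In each of 96 groups of 6 libraries (48 genes, anomaly and normal), the gap between the most distant library and its neighbour was compared with Dixon's 95% critical value for 6 samples. Of these, 5 groups passed it, where chance gives about 1 in 20 for independent samples. Here the 6 libraries of a group are pairs of pieces from 3 animals, so that rate is only a guide. Rpa2 had 9.265 CPM in piece 1 of anomaly animal 1, the shallow library, against 21.3 to 31.7 CPM in the other anomaly libraries. Ccne2 had 5.442 CPM in piece 2 of normal animal 3, against 3.99 to 4.43 CPM in the other normal libraries. Chaf1a had 2.272 CPM in piece 1 of normal animal 1, against 2.61 to 2.78 CPM in the others. Orc1 had 0.258 CPM in piece 1 of normal animal 1, against 0.0719 to 0.126 CPM in the others, and E2f8 had 0.426 CPM in piece 2 of normal animal 2, against 0 to 0.126 CPM. The last pair of values rests on few reads.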

How the results depend on the processing

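Under 21 alternatives to the comparison of anomaly with normal tissue, 35 of the 48 genes kept their call and their direction wherever they could be fitted. The number called was 43, and 36 with piece 1 of each animal alone, where Mcm2, Cdc45, Pold1 and Pcna were also not called. In that fit 26.78% of all genes tested were higher and 26.42% lower. Leaving out 1 animal gave 40 to 45 called genes with a median log2 fold change of 2.03 to 2.28, and 43 to 53 called among the 67 other replication genes, where 53 were called. In those fits 24.42% to 35.54% of all genes tested were higher and 24.48% to 32.62% lower. The median of 2.19 was 3.20 with library totals alone, 1.88 with trimmed mean scaling, 2.497 with a pseudocount of 0.1, 1.43 with a pseudocount of 5 and 2.70 with reads summed per animal and voom. With the piece number as a replicate block and the animal as a random block, 42 of the 48 genes were called, 41 higher and 1 lower, with Rfc4 and Pola2 not called and Fen1 called. Of all genes tested, 34.35% were then higher and 32.33% lower. Across 14687 genes, the mean difference between pieces in anomaly animals correlated at -0.0389 with that in normal animals. Piece 1 was labelled A in anomaly animals 1 and 3 but B in the normal animals. The value therefore cannot show whether the samples were paired. Estimates changed sign for Gins4 with trimmed mean scaling (-0.38), median-of-ratios scaling (-0.0232), piece 1 alone (-0.0731) and without anomaly animal 2 (-0.0844) or normal animal 2 (-0.0276), with a range of -0.0844 to 0.136 over animals left out. Rrm1 changed sign with trimmed mean scaling (-0.38), median-of-ratios scaling (-0.0121), piece 1 alone (-0.11) and without anomaly animal 1 (-0.108) or normal animal 2 (-0.0272), with a range of -0.108 to 0.245. With library totals alone the estimates were 0.47 for Rfc4, 0.0725 for Rpa1, 0.39 for Rpa2, 0.36 for Orc3, 0.34 for Pole4, 0.50 for Pold2, 0.52 for E2f3 and 0.56 for Orc5; the cause was not tested. The F test among anomaly animals called 0 of the 48 genes, 2 with library totals alone and 1 with median-of-ratios scaling. Of all genes tested it called 16.3%, 16.82% and 17.21% in these fits. Without a filter it called no gene of the 28488 tested, which says nothing about these genes. Depth limited piece 1 of anomaly animal 1, where 3 reads weighed 5.56 CPM.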
